A study of Rattus norvegicus with 12 samples.

Results

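The kinin and angiotensin systems of the rat colon were followed through 8 genes: the bradykinin receptors Bdkrb1 and Bdkrb2, angiotensinogen (Agt), the peptidases Ace and Mme, and the angiotensin receptors Agtr1a, Agtr1b and Agtr2. All array probes that carry one of these names in the raw files were taken, and none was added or dropped for its values. This gave 9 probes, 2 of them for Ace, out of 30367 probes and 26514 gene names on the array. The RefSeq accession of each probe led to the same symbol in the reference table.

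Colonic RNA of male Wistar rats was hybridised in 1 colour (Cy3), with 1 rat per array and 4 rats per group. Group C was normally handled and received placebo (saline). Group M underwent neonatal maternal separation (NMS), a model of irritable bowel syndrome in which pups are kept away from the dam for 180 min a day from postnatal day 2 to 14, and received placebo. Group D underwent the same NMS and received VSL#3, a mixture of probiotic bacteria, in the same 100 µL volume at 1 dose. All 3 groups were gavaged daily from day 3 to day 60, underwent colorectal distension (CRD) before the tissue was taken at day 60, and differed in nothing else that the labels give. CRD is thus shared by every value, and no unseparated rats on VSL#3 enter the comparisons. Following the study's methods, 11 arrays entered the comparisons. Rat D12 of Group D was left out, for which no reason was given. Its values are printed beside the others wherever rats are listed one by one.

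Kinins are short peptides cut from kininogens by kallikreins during tissue injury, and they sensitise sensory nerves, dilate vessels and contract gut muscle. Bdkrb2 is present in most tissues at rest, whereas Bdkrb1 is scarce in healthy tissue, answers to the kinin fragments that carboxypeptidases leave, and is induced by inflammatory cytokines. Ace joins both systems, since it inactivates bradykinin and also makes angiotensin II from the peptide that renin releases from Agt, while Mme (neprilysin) breaks down both peptides. Angiotensin II acts on the type 1 receptors, of which rats have a pair of genes, Agtr1a and Agtr1b, and on the type 2 receptor Agtr2.

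The 4 receptor probes on which the results turn are given by the first 30 of their 60 bases, written 5′ to 3′ in lower case throughout, because type 1 receptors are close copies of one another and a reader may want to see what was hybridised. Positions refer to rn4, the build named in the array headers. The Bdkrb1 probe lies at chr6:129762486-129762545 and the Bdkrb2 probe at chr6:129748780-129748839, both on the plus strand with 13646 bases between them. The Agtr1a probe lies at chr17:40629499-40629558 and the Agtr1b probe at chr2:105503483-105503542, both on the minus strand.
Bdkrb1: gcttcttgaccaaccatctctggtatcata
Bdkrb2: ctgtgggggatggggaccctggagcataga
Agtr1a: acccaagtccacacatcaaagtcacactgc
Agtr1b: ctgtcccagatagttgtgtcttcctagttg

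The Agtr1a and Agtr1b probes had no run of more than 6 bases in common, and the bradykinin receptor probes none of more than 5. Across all pairs of the 9 probes the longest common run was 10 bases, between Agt and Mme. The other probes lie at chr19:54738614-54738673 (Agt, minus strand), chr10:95381347-95381406 and chr10:95380760-95380819 (Ace, first and second probe), chr2:153114283-153114342 (Mme) and on the unplaced chromosome of rn4 (Agtr2). The runs compare the probes with each other only. Whether a probe matches the transcript of another member, or sits in a coding exon or a UTR, was not analysed here.

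A value below is the log2 of the ratio of a probe's signal to the 75th percentile of its array, so that 0 stands for a signal at that percentile. Brightness differs between probes for reasons other than abundance, and no level of one probe is set against another. "Well above background" is the scanner software's own mark. It was carried by 75.5% to 77.5% of the spots per array, no spot was saturated, and the 8 listed markers of epithelium and the 8 of smooth muscle, the layers of the labelled colon tissue, carried it on all 12 arrays. The arrays of Group C and Group M shared a slide, in different rows, and those of Group D lay on another, so that slide and group cannot be told apart for Group D, nor row and group for M against C. Rats C2, M6 and D12 stood apart from their own groups in several members and in immune marker lists, as given below. With 3 or 4 arrays per group the number of arrays limits the precision, and in whole tissue fewer cells of a type and less RNA per cell cannot be told apart.

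No member passed limma at a Benjamini-Hochberg adjusted p of at most 0.05 and a 2-fold difference: 0 of 9 probes in M vs C, D vs M and D vs C, where 0.168%, 0.125% and 0.00659% of all probes did. At an unadjusted limma p of at most 0.05 the members numbered 5 of 9 in M vs C (22.7% of all probes), 3 of 9 in D vs M (21.6%) and 0 of 9 in D vs C (5.98%). Leaving out 1 rat at a time gave 3 to 5 in M vs C, with 3 when M7 was left out, 2 to 5 in D vs M, with 5 when M6 was left out, and 0 to 1 in D vs C. The shares of all probes in those fits were not computed. The criterion of the study's methods asks for an unadjusted p of at most 0.05 both in an analysis of variance and in a Tukey test, and a 2-fold difference of the means. It was met by 2 of 9 probes in M vs C (2.33% of all probes), Bdkrb1 higher and Agtr1b lower, by 1 of 9 in D vs M (2.65%), Bdkrb1 lower, and by 0 of 9 in D vs C (0.366%). The groups did not overlap for 1 of 9 probes in M vs C (9.24% of all probes), 2 of 9 in D vs M (15.9%) and 0 of 9 in D vs C (7.6%). With D12 included, no member met the criterion in any comparison (1.56%, 0.948% and 0.352% of all probes), and 3, 3 and 1 of 9 members had an unadjusted limma p of at most 0.05 (18.5%, 12% and 6.78%). The groups then did not overlap for 1, 0 and 0 of 9 members (9.24%, 5.01% and 4.3%).

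Bdkrb1, the inducible bradykinin receptor, separated Group M from the other groups by more than any other member. Its log2 signal in Group C was -6.95, -4.28, -8.75 and -7.19 for rats C1 to C4. In Group M it was -3.73, -4.12, -2.85 and -2.93 for rats M5 to M8. In Group D it was -5.80, -7.83 and -8.61 for rats D9 to D11, and -3.06 for D12. All 4 rats of Group M were thus above all 4 of Group C and above D9 to D11, with C2 just under the lowest rat of Group M, while D12 lay among the rats of Group M. The probe was well above background in 1 of 4 rats of Group C (C2), 4 of 4 of Group M, D9 alone of D9 to D11, and D12, so most of the low values are near background and carry little order among themselves.

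On the intensity scale, Bdkrb1 averaged 30.7 in Group C, 178 in Group M and 14.0 in D9 to D11. The fitted differences are between means of log2 values, take the values near background as they are, and are no measure of an exact fold. The log2 difference of M vs C was 3.38 (SE 0.88, 95% interval 1.42 to 5.35), with an unadjusted p of 0.00324 and an adjusted p of 0.105 by limma. D vs M was -4.01 (SE 0.95, interval -6.13 to -1.88), with an unadjusted p of 0.00178 and an adjusted p of 0.0864. D vs C was -0.62 with an interval of -2.74 to 1.5, the widest interval of the members in that comparison.

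The size of the Bdkrb1 difference rested on how signal near background was treated and on single rats. After another background correction (normexp) it was 1.32 for M vs C and -1.51 for D vs M, the latter with an adjusted p of 0.0407. With M6 left out, the rat of Group M with the lowest Bdkrb1, the adjusted p was 0.0371 for M vs C and 0.0294 for D vs M. Bdkrb1 did not meet the criterion of the methods in M vs C without C1, C3, C4, M7 or M8, nor in D vs M without D11. With only Groups C and M, the arrays of the shared slide, in the model, the adjusted p of M vs C was 0.173, while the difference itself is the same by construction. With D12 added, D vs M was -2.92 at an adjusted p of 0.360 and the groups overlapped.

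**Figure D1:**
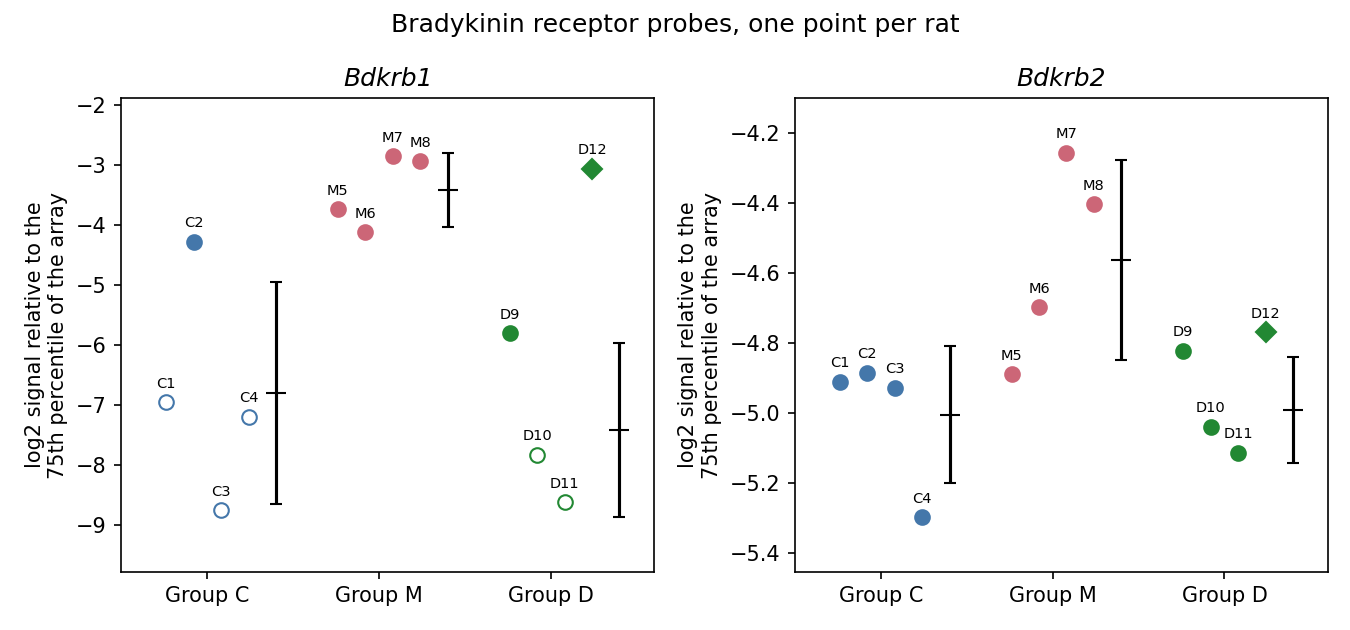
Log2 signal of the Bdkrb1 and Bdkrb2 probes relative to the 75th percentile of each array (vertical axis), 1 point per rat for Groups C, M and D, with the diamond for D12, open points where the probe was not well above background, and bars for the mean ± SD of the 11 arrays without D12. For Bdkrb1, Group M (-4.12 to -2.85) sits above Group C (-8.75 to -4.28) and above D9 to D11, while D12 (-3.06) sits within the range of Group M.

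Genes that cytokines induce, the class to which Bdkrb1 is known to belong, were read as a list of 11. From the same arrays the study had already listed Cxcl1, Ccl2, Il6 and Ptgs2 as higher in M vs C. It had also listed Ccl2 and Ccl3 as lower in D vs M, so the counts below are no separate support. By limma 0 of 11 had an adjusted p of at most 0.05 in any comparison, where 0.207%, 0.161% and 0.00659% of all probes did. Without M6 the count was 7 in M vs C and 6 in D vs M, and with array quality weights it was 8 and 6. The shares of all probes under those settings were not computed, and members and other pathway genes also passed there, so these counts have no share to be read against. At an unadjusted limma p of at most 0.05, 7 of 11 were higher and 0 lower in M vs C (9.86% and 12.9% of all probes), with a list median of 1.26 beside -0.01 over all probes. In D vs M 6 of 11 were lower and 0 higher (9.85% and 11.8% of all probes), with a median of -1.54 beside 0.02 over all probes (-0.95 for the list with D12 included). In D vs C 0 of 11 reached that level in either direction, and the list median was -0.17. Over the same comparisons the criterion of the methods was met by 5, 3 and 0 of the 11 (2.33%, 2.65% and 0.366% of all probes). The list was not counted by this criterion with D12 included.

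Among them, Ccl2, a chemokine that draws monocytes, differed by 3.17 in M vs C (adjusted p = 0.0958 by limma) and by -3.99 in D vs M (adjusted p = 0.0723). Ptgs2, the inducible cyclooxygenase, was 1.60 higher in M vs C (adjusted p = 0.101), and the rats of Group M did not overlap with those of Group C. Icam1, an adhesion molecule of activated endothelium, was 1.22 higher in M vs C (adjusted p = 0.115) and 1.54 on the log2 scale lower in D vs M, a difference of -1.54 (adjusted p = 0.0948). Ccl3, a chemokine of macrophages, differed by -2.33 in D vs M (adjusted p = 0.114). These differences of D vs M leave out D12, which was at 2.73 for Ccl2, 1.09 for Icam1 and -2.24 for Ccl3. It thus lay within the range of Group M for Ccl2 and Ccl3 and above every rat of Group M for Icam1.

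The summed level of the cytokine-inducible list, in multiples of the 75th percentile of the array, was 3.86 to 8.06 in Group C, 6.17 to 36.5 in Group M and 3.66 to 15.0 in Group D. The highest rat of Group C was C2 (8.06), the lowest of Group M was M6 (6.17) and the highest of Group D was D12 (15.0). The 6 rats with the highest Bdkrb1 signal, namely Group M, C2 and D12, had list levels of 6.17 and above, and the other 6 had 4.53 and below.

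Summed levels of immune cell markers differed between the rats as well, and the brightest genes weigh most in such a sum. At an unadjusted limma p of at most 0.05, 2 of 6 macrophage markers were higher and 1 lower in M vs C. Their median difference was 0.43, and the shares of all probes were 9.86% and 12.9%. In D vs M 5 were lower and 0 higher (9.85% and 11.8% of all probes), with a median of -0.64. Of 4 B cell markers 0 reached that level in M vs C, and 3 were lower in D vs M. The summed level of 6 macrophage markers (of 7 listed, each well above background on all 12 arrays) was 12.8 to 13.0 in C1, C3 and C4, and 36.3 in C2. In Group M it was 13.4 in M6 and between 39.7 and 52.8 in the other 3 rats, and in Group D it was 9.72 to 14.1 in D9 to D11 and 36.6 in D12. B cell markers, measured for 4 of 5 listed genes, summed to 5.43 in C2 and at most 0.327 in the other rats of Group C. They summed to 0.281 in M6, 4.61 to 8.21 in the other rats of Group M, at most 0.624 in D9 to D11 and 14.0 in D12. Of these markers Cd79b was well above background on all 12 arrays, Ms4a1 on 8 and Cd22 on 5. Neutrophil markers (5 of 6 listed) spanned 0.102 to 0.361 in Group C, 0.136 to 3.60 in Group M and 0.126 to 0.395 in Group D.

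M6 is the rat in which these markers and Bdkrb1 parted: its macrophage and B cell levels were those of C1, C3 and C4, yet its Bdkrb1 signal was -4.12 against -6.95 or lower in those 3. D9 likewise had the lowest macrophage and B cell levels of all 12 rats and a Bdkrb1 signal of -5.80, above that of C1, C3 and C4. What part the cell content of the samples had in the Bdkrb1 difference was not tested.

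**Figure D2:**
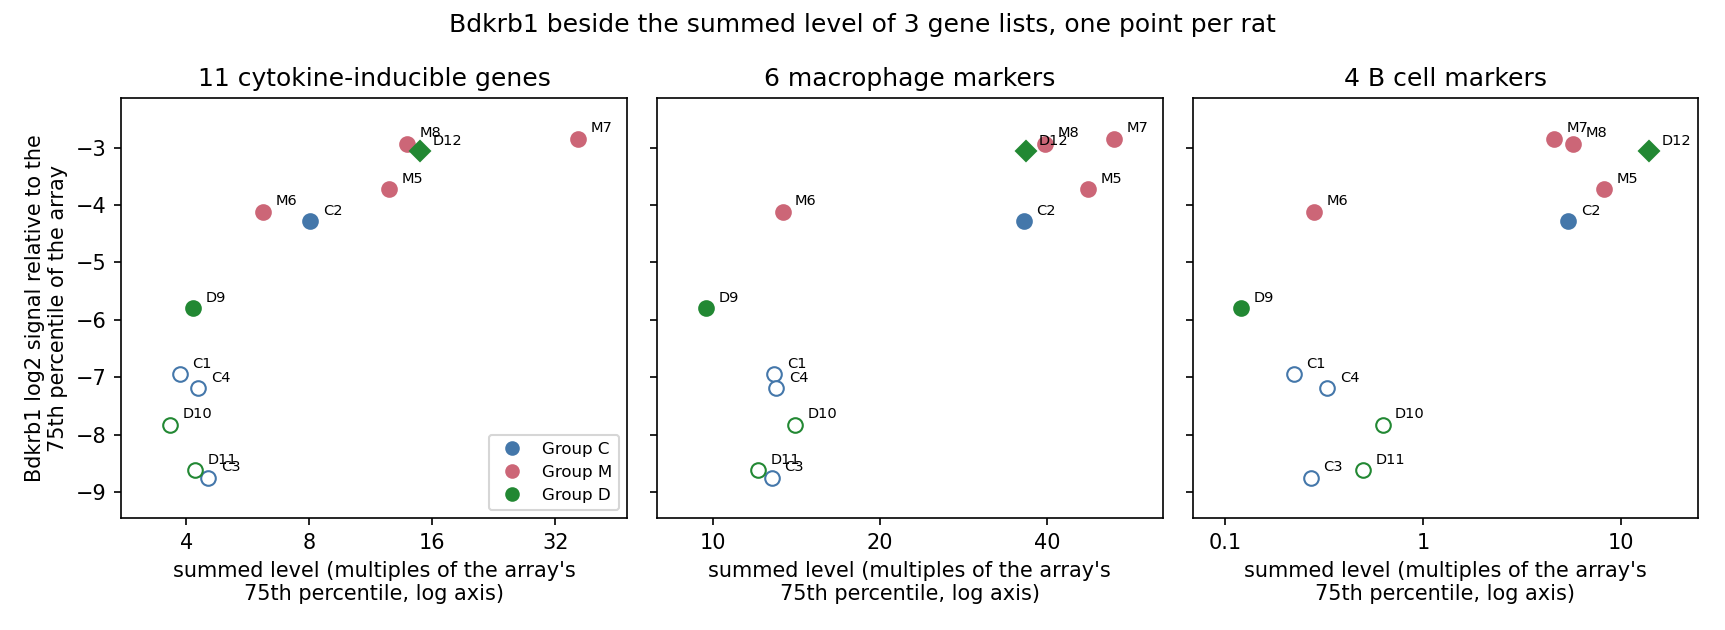
Bdkrb1 log2 signal relative to the 75th percentile of the array (vertical axis) against the summed level of 11 cytokine-inducible genes, 6 macrophage markers and 4 B cell markers (horizontal log axes, in multiples of that percentile), 1 point per rat, open where Bdkrb1 was not well above background and a diamond for D12. C2 and D12 lie with M5, M7 and M8 at the right of the macrophage and B cell panels, C2 lies next to M6 in the cytokine panel, and M6 lies at a high Bdkrb1 signal (-4.12) beside low macrophage (13.4) and B cell (0.281) levels.

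Bdkrb2, the constitutive bradykinin receptor, was well above background in all 12 rats and varied far less. Its log2 signal was -4.91, -4.88, -4.93 and -5.30 in Group C. In Group M it was -4.89, -4.70, -4.26 and -4.40, and in Group D it was -4.82, -5.04, -5.11 and, for D12, -4.77. M7 and M8 were the highest of all rats, M5 lay within the range of Group C, and the groups overlapped. M vs C was 0.44 (SE 0.16), a 1.36-fold higher mean, with an unadjusted p of 0.0176 and an adjusted p of 0.144 by limma. D vs M was -0.43 (SE 0.17; adjusted p = 0.182), and D vs C was 0.01 with an interval of -0.36 to 0.39.

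The 2 bradykinin receptor probes lie side by side on chromosome 6 and differed in the same direction in M vs C and in D vs M, but by unlike amounts. The log2 difference of Bdkrb2 was 0.44 and -0.43, that of Bdkrb1 3.38 and -4.01.

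Agt, the precursor of all angiotensins, was well above background in all rats, and its spread within groups was wide. The log2 signal was -0.91, -1.65, -1.67 and -2.59 in Group C. In Group M it was -1.97, -2.53, -2.60 and -1.68, and in Group D -2.08, -2.44, -3.04 and, for D12, -2.44. C1 was the highest of the 12 rats, and the range of Group C took in all the others but M7 and D11. M vs C was -0.49 (interval -1.28 to 0.30; adjusted p = 0.451 by limma) and D vs M was -0.33 (interval -1.18 to 0.53). D vs C was -0.81 (interval -1.67 to 0.04), with an unadjusted p of 0.0602 and an adjusted p of 0.852; with D12 included it was -0.79 at an unadjusted p of 0.0398 and an adjusted p of 0.721.

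Fat is a known source of Agt, and markers of adipocytes (4 of 5 listed measured, 2 of them well above background on all arrays) differed between the samples. Their summed level was 1.21 in C1 and 0.215 in C4, the highest and the lowest rat of Group C for Agt. In Group M it ranged from 0.190 in M6 to 0.970 in M8, the highest rat there for Agt, but was 0.524 in M7, the lowest there for Agt. In Group D it ranged from 0.174 in D11, the lowest of all 12 for Agt, to 0.329 in D12, while D9, the highest there for Agt, had 0.302. The part of attached fat in the Agt values was not tested.

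Ace, the peptidase shared by both systems, held nearly the same level in every rat. The first Ace probe gave -1.25, -1.33, -1.17 and -1.18 in Group C. It gave -1.23, -1.27, -1.14 and -1.15 in Group M, and -1.16, -1.04, -1.37 and, for D12, -1.34 in Group D. No group stood apart. M vs C was 0.03 with an interval of -0.17 to 0.24, D vs M was 0.01 with an interval of -0.21 to 0.23, and D vs C was 0.04 with an interval of -0.18 to 0.27. The second Ace probe, 1 spot per array, ranged from -3.92 to -3.41 over the 12 rats and gave -0.04, 0.14 and 0.10 in the same comparisons, with intervals that all spanned 0. Of these 6 intervals the one that reached farthest from 0 ended at 0.41.

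Mme, the peptidase neprilysin, was lower in most rats of Group M. Its log2 signal was -1.58, -2.11, -1.25 and -1.11 in Group C and -2.55, -1.78, -2.56 and -2.11 in Group M. In Group D it was -1.13, -1.74, -2.01 and, for D12, -2.76, the lowest of all rats. C2 lay among the rats of Group M and M6 among those of Group C, so the groups overlapped. M vs C was -0.73 (SE 0.27, interval -1.34 to -0.13), with an unadjusted p of 0.0225 and an adjusted p of 0.157 by limma. D vs M was 0.62 (SE 0.30; adjusted p = 0.252) and 0.34 with D12 included, and D vs C was -0.11 (interval -0.77 to 0.54).

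Agtr1a, the main type 1 angiotensin receptor of the rat, had a log2 signal of -0.85, -1.47, -1.23 and -0.92 in Group C. In Group M it was -1.74, -1.33, -1.69 and -1.74. In Group D it was -0.89, -0.86 and -0.60, and -1.84 for D12. Rats D9 to D11 were all above all 4 of Group M, C2 lay within the range of Group M, and D12 was the lowest of the 12. D vs M was 0.84 (SE 0.17, interval 0.46 to 1.22), a 1.79-fold higher mean, with an unadjusted p of 0.000612, the smallest of any member, and an adjusted p of 0.0744 by limma. M vs C was -0.51 (SE 0.16, interval -0.87 to -0.16; adjusted p = 0.123), and D vs C was 0.33 (interval -0.05 to 0.71; adjusted p = 0.876).

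The Agtr1a difference between D and M was smaller and less certain with D12 included. With that rat it was 0.58 (interval 0.03 to 1.12), with an unadjusted p of 0.0401 and an adjusted p of 0.390 by limma, and the groups overlapped. The probe is printed 10 times on the array, more than any other member, and its value is the mean of those spots.

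Agtr1b, the second type 1 receptor gene, was at -3.67, -3.97, -4.24 and -3.95 in Group C. It was at -4.98, -3.99, -5.83 and -5.21 in Group M, and at -4.42, -4.23, -4.15 and, for D12, -5.15 in Group D. M5, M7 and M8 were below every rat of Group C and below D9 to D11, while M6 lay within the range of Group C. M vs C was -1.05 (SE 0.32, interval -1.75 to -0.34), a 2.07-fold lower mean, with an unadjusted p of 0.00781 and an adjusted p of 0.118 by limma. D vs M was 0.73 (SE 0.34; adjusted p = 0.244) and D vs C was -0.31 (interval -1.07 to 0.45).

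Leaving out M6 widened the Agtr1b differences to -1.38 in M vs C (adjusted p = 0.00949) and 1.07 in D vs M (adjusted p = 0.0174). After normexp the M vs C difference was -0.54 (adjusted p = 0.0914), under 2-fold. Agtr1a and Agtr1b thus differed in the same direction in M vs C and in D vs M, though the D vs M interval of Agtr1b spanned 0. Their r over the 12 arrays was 0.73 (0.69 with group means taken out). The probes share no run of more than 6 bases, but whether either also matches the other transcript was not analysed.

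Agtr2, the type 2 receptor, was well above background on 0 of 12 arrays, with log2 signals between -9.06 and -8.45. No fold is given for it, and a change at levels under the background of these arrays was not detectable.

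**Figure D3:**
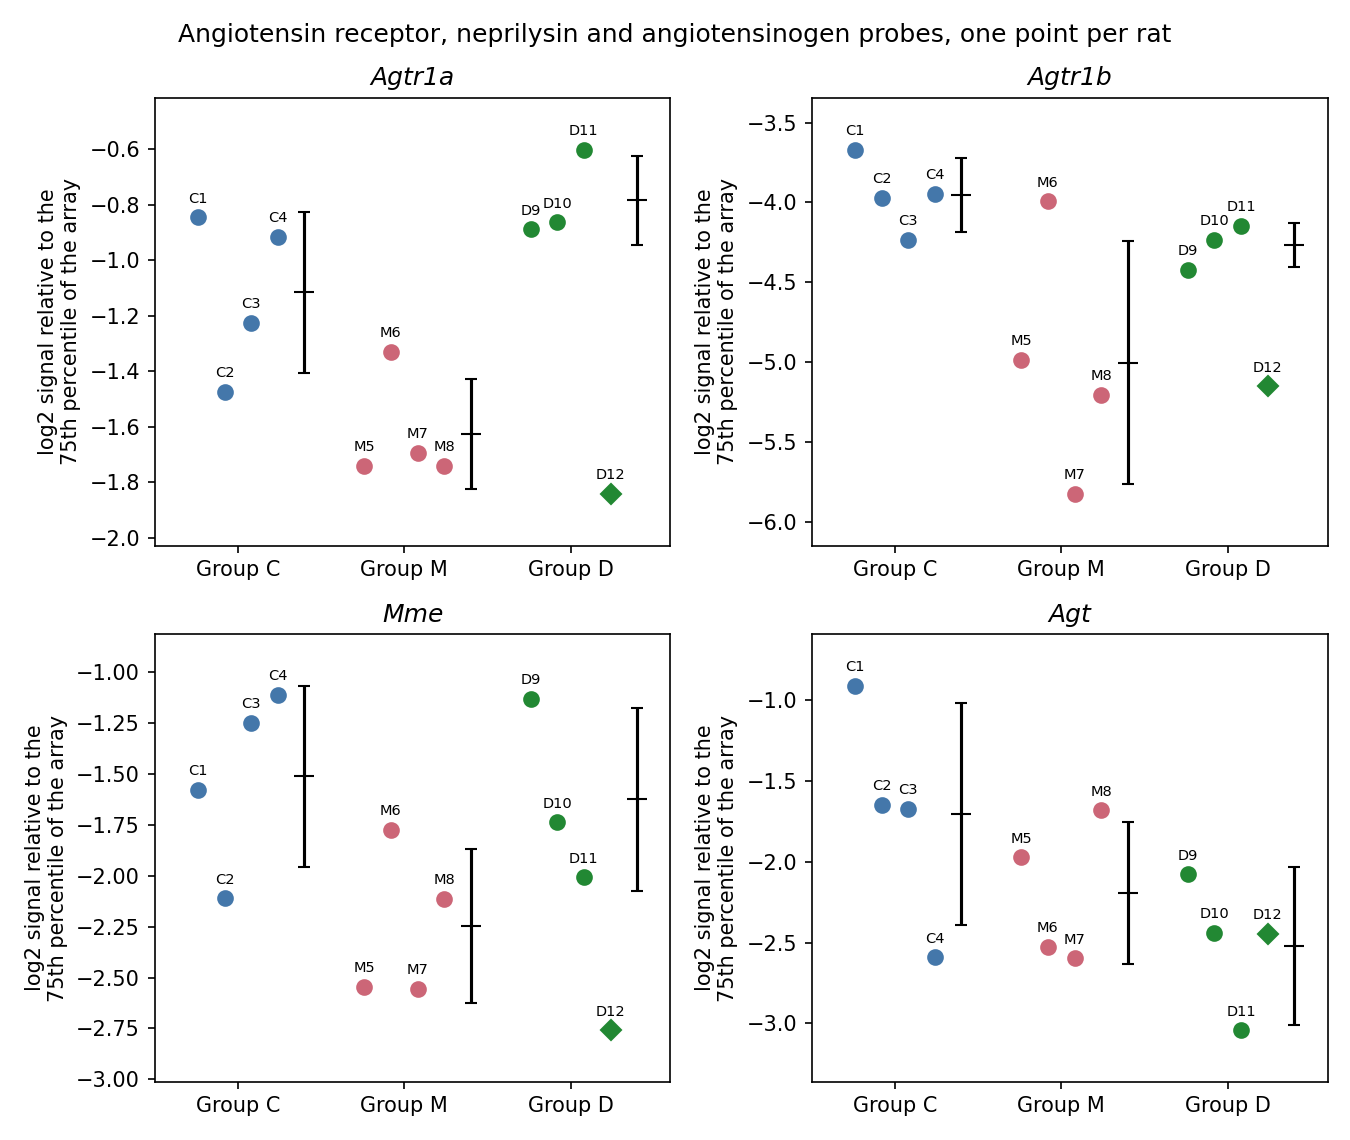
Log2 signal of the Agtr1a, Agtr1b, Mme and Agt probes relative to the 75th percentile of each array (vertical axes, each with its own scale), 1 point per rat for Groups C, M and D, a diamond for D12 and bars for the mean ± SD of the 11 arrays without D12. D9 to D11 lie above Group M for Agtr1a (-0.89 to -0.60 against -1.74 to -1.33), M6 lies above the other rats of Group M for Agtr1a, Agtr1b and Mme, and D12 lies below D9 to D11 for the same 3 genes.

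Set side by side, the log2 differences of M vs C were 3.38 and 0.44 for the bradykinin receptors, -0.51 and -1.05 for the type 1 angiotensin receptors and -0.73 for Mme, each with an interval on 1 side of 0, while those of Agt and Ace spanned 0. With D12 in the model the intervals of Agtr1a (-1.06 to 0.04) and Mme (-1.47 to 0.00173) spanned 0 as well. Without D12, single rats mattered too. Bdkrb2 had an unadjusted limma p above 0.05 in M vs C without C4, M7 or M8 and in the authors' deposited matrix. Mme did so without C3, C4, M5 or M7. D vs M uses the same 4 rats of Group M, so that it is no separate observation of them, and gave -4.01 and -0.43 for the bradykinin receptors, 0.84 and 0.73 for Agtr1a and Agtr1b, and 0.62 for Mme. The D vs M intervals of Agtr1b and Mme spanned 0.

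**Figure D4:**
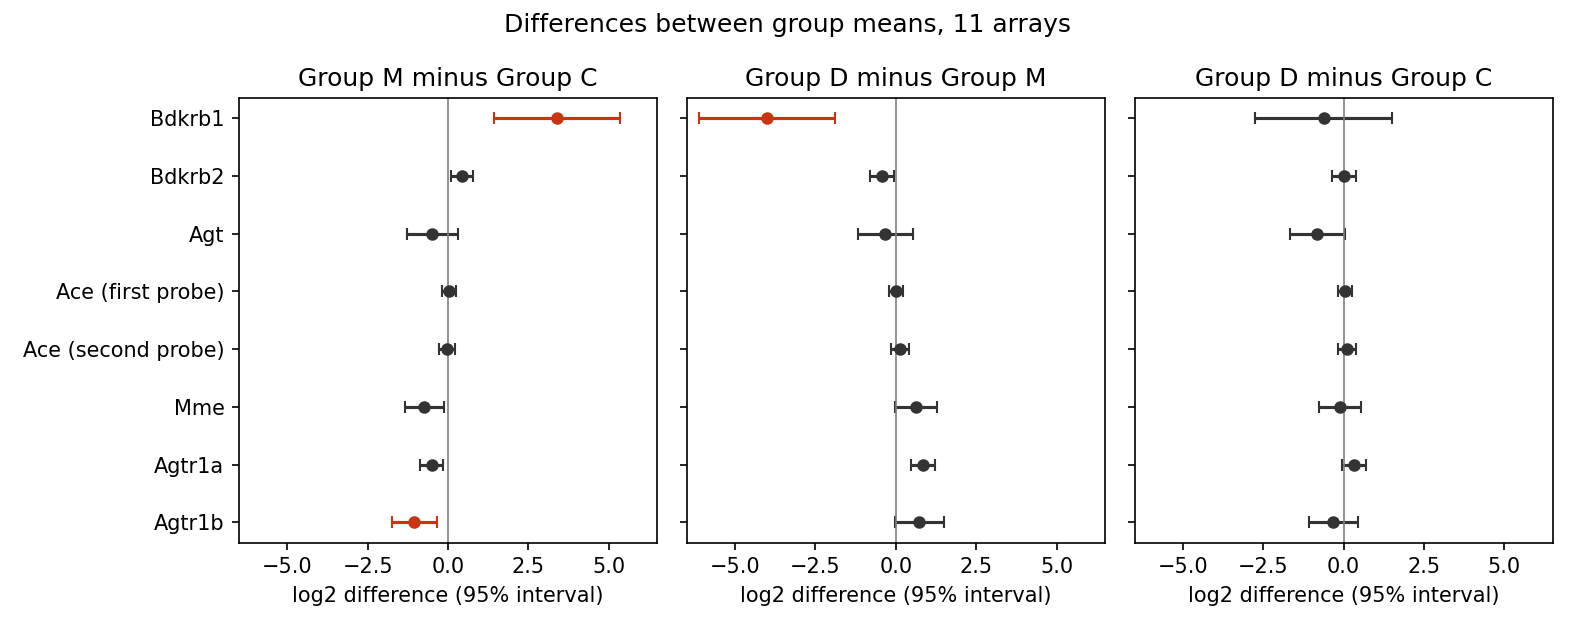
Log2 differences between group means (horizontal axis) with 95% intervals from limma for the 8 member probes other than Agtr2, in the 3 comparisons over 11 arrays, with red points where the criterion of the methods was met. Bdkrb1 lies farthest from 0 in M vs C (3.38) and in D vs M (-4.01), both Ace probes lie near 0 throughout, and every interval of D vs C spans 0.

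The other genes of the pathways were read from lists of 32, of which 31 had a probe and 20 were well above background on all arrays. By limma 0 of 31 had an adjusted p of at most 0.05 in any comparison. Without M6, 2 genes of kinin breakdown and 4 of the renin-angiotensin list did in M vs C, and 2 and 3 in D vs M; with array quality weights 4 and 5 did in M vs C, with 2 of the kinin precursor list, and 4 and 3 in D vs M, with 1. Without C2 it was 1 gene in M vs C, Cma1, and without D10 it was 1, Mcpt1. No share of all probes was computed for these altered settings. Without M6 and with array quality weights, members and cytokine-inducible genes passed as well. At an unadjusted p of at most 0.05 there were 3 higher and 6 lower in M vs C (9.86% and 12.9% of all probes), 4 higher and 2 lower in D vs M (11.8% and 9.85%), and 2 higher and 0 lower in D vs C (3.15% and 2.83%). The same shares of all probes stand beside the counts of the single lists that follow. The medians over the 31 genes were -0.03, 0.09 and 0.04, beside -0.01, 0.02 and -0.000251 over all probes.

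Of 7 kinin precursors and kallikreins, 2 were well above background on all 12 arrays, Serping1 and F12, and 4 on none. Serping1, the C1 inhibitor, which also blocks plasma kallikrein, was 0.23 higher in M vs C (unadjusted p = 0.049, adjusted p = 0.218 by limma), and it was the only gene of this list at that level in M vs C, with 0 in D vs M. F12, the clotting factor that starts plasma kinin release, differed by -0.76 in M vs C (SE 0.48; adjusted p = 0.375) and by 0.91 in D vs M (SE 0.52; adjusted p = 0.338). The kininogens Kng1 and Kng2 were not well above background in any rat.

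Of 10 enzymes that break down kinins, 0 were higher and 3 lower in M vs C when the unadjusted p was held to 0.05. Dpp4, which trims peptides at a proline, differed by -0.90 (adjusted p = 0.171 by limma) in M vs C and 0.93 (adjusted p = 0.197) in D vs M. Ece1, the endothelin-converting enzyme, which also cleaves bradykinin, differed by -0.31 in M vs C (adjusted p = 0.175). Xpnpep2, an aminopeptidase that inactivates bradykinin, was well above background on 1 of 12 arrays, and no difference is given for it. The epithelial marker level spanned 137 to 201 in Group C, 155 to 213 in Group M and 130 to 206 in Group D, with overlap between all groups. In D vs M, Prep, a prolyl peptidase, differed by -0.31 (adjusted p = 0.141), with D9 to D11 below all rats of Group M, and Anpep, an aminopeptidase of the brush border, by 0.44 (adjusted p = 0.178).

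Of 14 measured genes of the renin-angiotensin list, 2 were higher and 3 lower in M vs C when the unadjusted p was held to 0.05. The mast cell chymases of this list, Cma1 and Mcpt1, gave higher mean signals in Group M than in Group C. Cma1 gave -2.16, -0.34, -2.16 and -1.96 in Group C and 0.14, -0.70, 0.17 and -0.19 in Group M, so that C2 alone of Group C overlapped. It gave -0.54, -1.29, -1.0 and, for D12, 0.12 in Group D. Its difference was 1.51 in M vs C (adjusted p = 0.105) and -0.80 in D vs M (adjusted p = 0.310 by limma). Mcpt1 was well above background in 4 of 4 rats of Group M, in D10 alone of Group D and in 0 of 4 of Group C, and its mean in Group M was at least 10.3-fold above the background level of Group C (adjusted p = 0.0868).

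Mast cell markers also differed between the groups. All 6 listed were measured, 5 of them well above background on all arrays, and their summed level was 0.382 to 0.612 in Group C, 0.699 to 1.20 in Group M and 0.529 to 0.752 in Group D. In M vs C 5 of the 6 were higher and 1, Kit, lower with unadjusted limma p-values no higher than 0.05. In D vs M 2 were higher and 2 lower. Within Group D the summed level was highest in D10 (0.752), the lowest there for Cma1 but the only rat there with Mcpt1 well above background. It was 0.668 in D12, the highest there for Cma1. Their part in the chymase values was not tested.

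Agtrap, a protein that binds the type 1 receptor and promotes its withdrawal from the surface, gave 0.79, 0.29, 0.48 and 0.66 in Group C. It gave 0.10, 0.57, -0.36 and -0.05 in Group M, and 0.96, 0.60, 0.84 and, for D12, 0.02 in Group D. D9 to D11 were above all rats of Group M. D vs M was 0.73 (adjusted p = 0.108 by limma), 0.54 with D12 included, and M vs C was -0.49 (adjusted p = 0.170). Nln, neurolysin, which cuts both bradykinin and angiotensin I, differed by -0.50 in D vs M (adjusted p = 0.131). D9 to D11 did not overlap with Group M, but D12, at -1.15, was the highest of the 12 rats. Enpep, the aminopeptidase that turns angiotensin II into angiotensin III, differed by -0.38 in M vs C (adjusted p = 0.157). All 4 rats of Group M were below all 4 of Group C, but M8 (-2.567) and C4 (-2.561) nearly met.

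**Figure D5:**
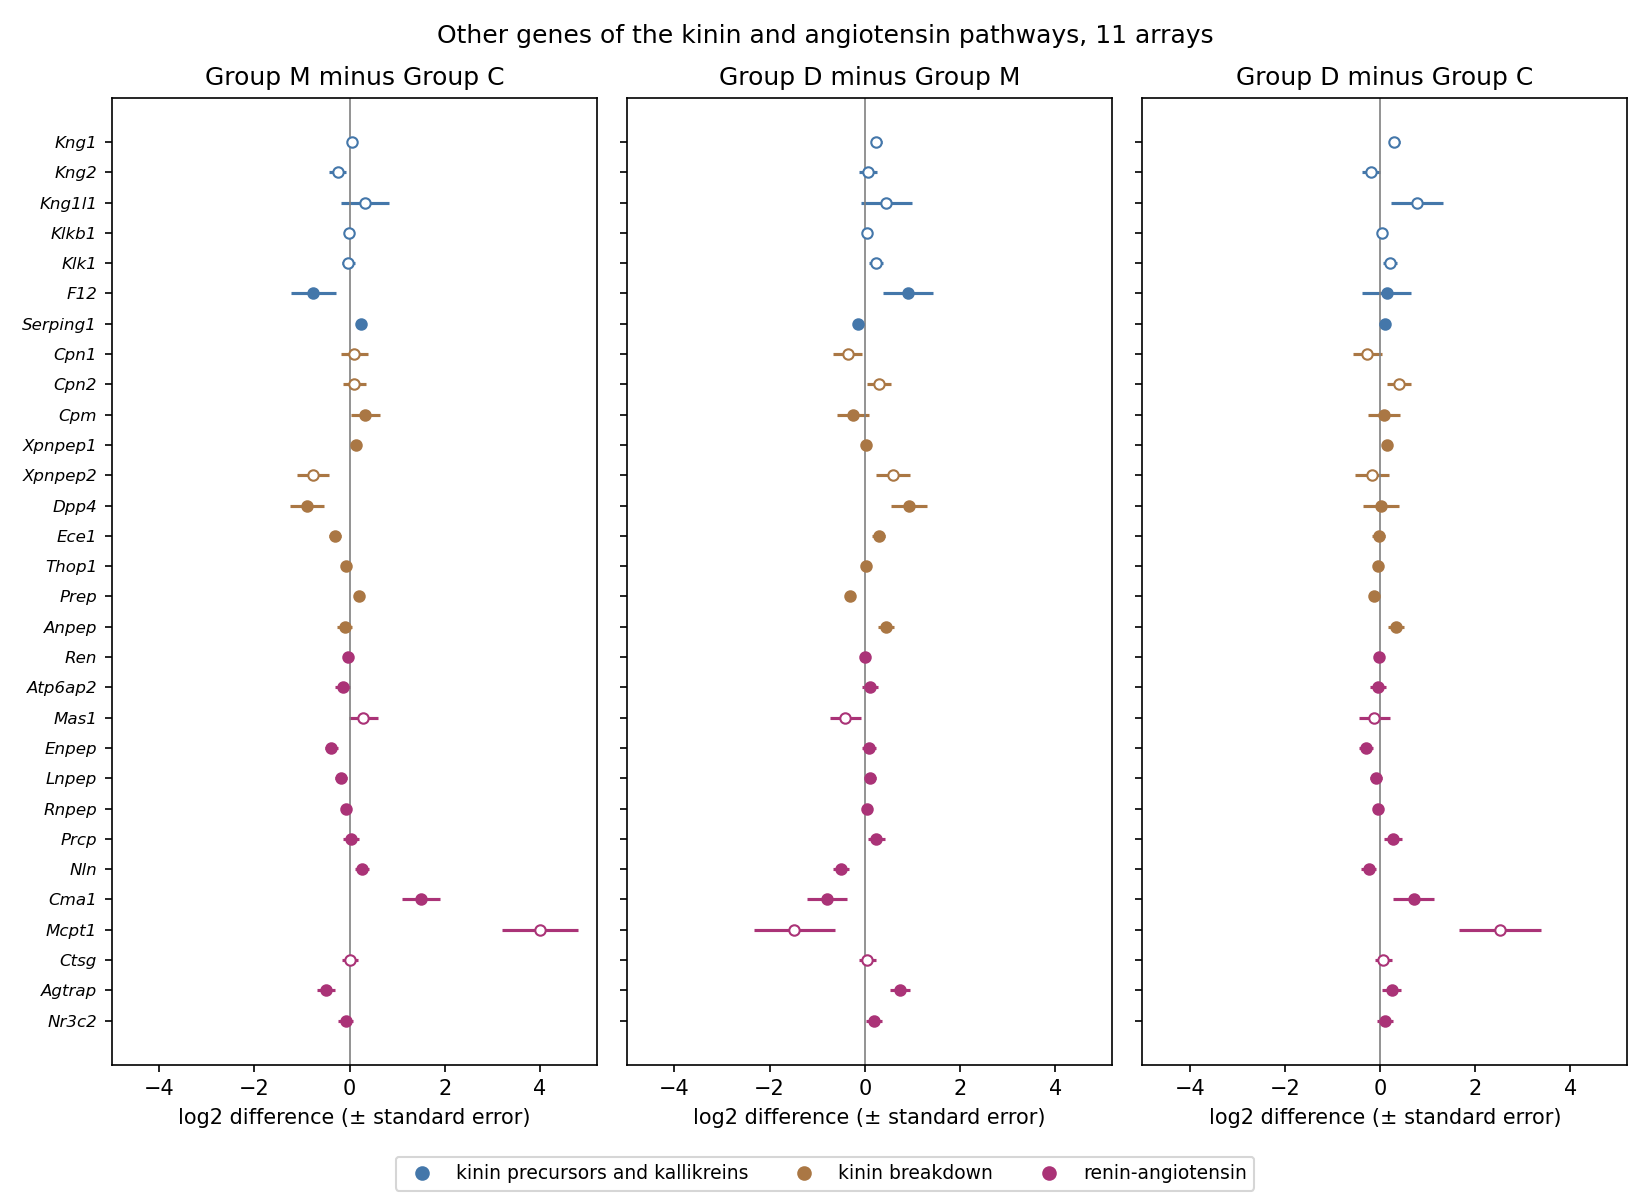
Log2 differences ± standard error (horizontal axes) of 30 other pathway genes in the 3 comparisons over 11 arrays, coloured by list, with open points for genes not well above background on all 12 arrays. Mcpt1, dim in every rat of Group C, and Cma1 (1.51) lie farthest to the right in M vs C, Dpp4 lies at -0.90 there and at 0.93 in D vs M, and most of the other genes lie close to 0.

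The genes whose signal ran most like that of each member over the 12 arrays were taken from 20298 named probes well above background on all of them. For Bdkrb1, with 5 of its 12 values not well above background, these were Pwp2 (r = 0.97), which serves ribosome assembly, an unnamed Ensembl transcript (r = 0.96) and the transcription factor Foxk1 (r = 0.96). For Agtr1a the nearest was Snhg11, a non-coding RNA (r = 0.97). For Agtr1b they were Casr, the calcium-sensing receptor (r = 0.97), Grk4, a receptor kinase (r = 0.97), and one uncharacterised locus (r = 0.98). For Mme they were the mitochondrial citrate carrier Slc25a1 (r = 0.98), Mapk13 (r = 0.96) and Gipc2 (r = 0.96).

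For Bdkrb2 the nearest were Sec16a, Ints2 and Mars (each r = 0.96). For Agt they were RGD1310727 (r = 0.89), Cnpy4 (r = 0.88) and Cfd, adipsin, a product of fat cells (r = 0.87); without C1 and D11, the rats farthest from the median of Agt, the first of these had an r of 0.69. For Ace they were Ap2s1 (r = 0.93), Syt5 (r = 0.91) and one uncharacterised locus (r = 0.88). All are the highest of these candidates over the same arrays and normalization, and describe these 12 rats.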

How the data were processed

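Per the file headers, the deposited intensity of each spot (1 colour, Cy3) had been made by Agilent Feature Extraction through background subtraction and detrending, without normalization between arrays. The authors also deposited a matrix of log2 values, quantile normalized as its columns share 1 distribution; each column followed its own array most closely.

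Control and outlier spots were left out, spots of a probe averaged, and signals divided by the array's 75th percentile before log2. No value was had for 19 of the 30367 probes on 1 or more arrays. Groups were compared with limma 3.58.1 (R 4.3.3) over 11 arrays with 1 mean per group and Benjamini-Hochberg adjustment over all probes, and by the criterion of the study's methods. Both were tested on simulated data. Where no array of the lower group was well above background, a fold is a bound against the background level. The leading probe of a gene is its brightest. Of each pathway list, genes past the adjusted p were to be named, or else the 3 with the smallest p; further genes were chosen after their values were seen. Members and lists were chosen with earlier results of these data known. The labels do not say that the rats came from separate litters. One pathway gene, 1 marker and 1 gene of like pattern enter the counts and sums but are not reported here by name.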

Additional observations from a re-analysis of the deposited data

Results flagged for a closer look

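Among 27 sets of values (9 probes in 3 groups), 2 held a rat far from the others of its group by Dixon's test, which chance gives in about 1 of 20 sets. For Bdkrb2, rat C4 of Group C was at -5.30, with the nearest other rat at -4.93. For Agtr1a, rat M6 of Group M was at -1.33, with the nearest other rat at -1.69.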

How the results depend on the processing

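Of 564 recomputed differences of the members (20 or 21 alternatives for each probe and comparison), 0 of those with an unadjusted p of at most 0.05 changed sign and 27 others, all with intervals that spanned 0, did. The count of members called by limma, 0 in each comparison, was 2 in M vs C and 1 in D vs M with array quality weights, and 1 in D vs M after normexp. It ranged from 0 to 2 in M vs C, 0 to 2 in D vs M and 0 to 0 in D vs C when each rat was left out in turn; the 2 in M vs C and in D vs M, Bdkrb1 and Agtr1b, were called without M6. The count by the criterion of the methods, 2 in M vs C and 1 in D vs M, was 0 and 0 with all 12 arrays, and 1 in M vs C after normexp. Leaving out each rat gave 0 to 2 in M vs C: 0 without C1, C3, C4, M7 or M8, and 1, Bdkrb1, without C2, M5, D9, D10 or D11. It gave 0 to 2 in D vs M (0 without D11 and 2 without M6) and 0 to 1 in D vs C, the 1 being Agt without C4. The causes of these moves were not tested. Other than for all 12 arrays, no share of all probes was computed for these alternatives. Quantile normalization, a shift to the median, the authors' matrix, kept outlier spots and a background filter (21574 probes) changed none of these counts.

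Replicate numbers did not pair the rats: correlations of same-numbered rats spanned -0.72 to 0.58 (median -0.22). With the replicate block 0 members were called in M vs C, 0 in D vs M and 0 in D vs C; Bdkrb1 was 3.38 (adjusted p = 0.243) in M vs C and -3.99 (adjusted p = 0.258) in D vs M. Signals near background limit Bdkrb1 in Groups C and D and all of Agtr2.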
